A study of Arabidopsis thaliana with 12 samples.

Results

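SR30 (AT1G09140), SR34 (AT1G02840), SR34a (AT3G49430) and SR34b (AT4G02430) are the Arabidopsis thaliana genes of the SR subfamily of serine/arginine-rich splicing factors. They were taken from the deposited count table by locus identifier, and make up 4 of the 23174 genes in it and 31 of its 51791 transcript rows. The libraries came from rosette leaves of ecotype Col-0, grown on soil at 23 °C for 3 weeks. The 4 groups were atcyp18-2 after 1 h at 47 °C, atcyp18-2 kept at 23 °C, wild type (WT) after 1 h at 47 °C and WT kept at 23 °C, with 3 libraries each. The mutant atcyp18-2 is named for a cyclophilin gene, AtCYP18-2 (AT2G36130), and the labels do not say what kind of allele it carries. No control is described as sampled after the same hour, so heat and the passing of that hour cannot be told apart. The labels do not say whether the replicates are separate plants or pools, and the p-values therefore measure only the spread between these libraries, which may be technical.

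SR proteins bind exonic sequences of pre-mRNA through RNA recognition motifs and recruit the U1 particle and the U2AF factor to the neighbouring splice sites through a tail rich in arginine and serine. Kinases of the SRPK and AFC families phosphorylate that tail. The SR subfamily is the plant counterpart of human SRSF1, and SR30 is known to act on the splicing of its own pre-mRNA and on that of SR34. Plant SR transcripts are themselves spliced in many ways, and several of the variants end early and are targets of nonsense-mediated decay or stay in the nucleus. AtCYP18-2 corresponds to the human cyclophilin PPIL1, a protein of the spliceosome, which is the setting in which the mutant was heated.

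Taking 1 row per gene, a library held 9075387 to 12493977 reads. Chloroplast transcripts took 59.9 to 70.2% of them, and nuclear genes had 2572364 to 4348395 reads. Over the 4 genes together there were 1720 to 2460 reads per heated library and 582 to 863 per control library. The mutant label was checked first. AtCYP18-2 stood at 3.03 ± 1.01 CPM in heated atcyp18-2 and 6.79 ± 1.10 CPM in heated WT, and at 1.02 ± 0.0565 CPM in control atcyp18-2 and 5.97 ± 0.348 CPM in control WT (SD, n = 3 each). The log2 difference was -2.55 ± 0.25 without heat (edgeR adjusted p = 0.00348) and -1.13 ± 0.24 after heat (edgeR adjusted p = 0.105), so the transcript was not absent from the mutant. CPM are read counts scaled to a common library size, here by TMM, which weighs out a shift shared by most genes. Summed levels of the 4 mesophyll markers were 10500 to 19100 CPM in every group, whereas the flower markers AT4G18960 and AT3G54340 summed to at most 0.527 CPM. The heat label was checked with the chaperone gene HSP101, which rose by 9.99 in atcyp18-2 and 10.08 in WT on the log2 scale. Summed guard cell markers were at 5.03 to 6.37 CPM in heated and 6.31 to 10.2 CPM in control atcyp18-2, and at 4.95 to 6.61 CPM in heated and 6.75 to 9.87 CPM in control WT. The root markers were at 10 to 16.7 CPM in heated and 20.8 to 32.3 CPM in control atcyp18-2, and at 9.22 to 20.8 CPM in heated and 22.7 to 53.6 CPM in control WT. The phloem markers were at 31.3 to 73.5 CPM over all groups. The summed root markers were lower after heat without overlap in both genotypes and the guard cell markers in WT, and their part in the heat responses was not tested. Of the 2 root markers, 1 had 0 reads in both heated groups and in control atcyp18-2. The root sum thus rests almost wholly on PYK10 (AT3G09260), which had 22.75 to 53.62 CPM in control WT. Within every group the libraries also lay on either side of a component that held 53.9% of the variance within groups. The 5 libraries on its negative side were atcyp18-2 heat replicate 2, atcyp18-2 control replicate 1, WT heat replicate 3, and WT control replicates 1 and 2. Chloroplast transcripts took 59.9 to 62.6% of the reads in these 5 and 63.7 to 70.2% in the libraries on the positive side. What the component stands for was not tested.

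Each gene has several rows in the table, 1 per transcript, and the rows of a gene hold largely the same reads. The level of a gene was therefore read from its annotated row with the most reads, called the gene row here. This was SR30.3 for SR30, SR34.4 for SR34, SR34a.4 for SR34a and SR34b.3 for SR34b, the digit after the point being the annotated transcript number. In the RefSeq annotation of TAIR10.1, matched by transcript identifier, these have 2256, 1855, 2387 and 1940 bases. All 4 genes lie without an overlapping gene in that annotation.

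SR30 showed the steepest rise with heat among the 4 genes in both genotypes. Its gene row had 252.8, 209.6 and 232.6 CPM in heated atcyp18-2 (1536, 1777 and 1480 reads), against 10.9, 15.4 and 12.1 CPM in control atcyp18-2 (144, 226 and 138 reads). In WT it had 152.6, 174.6 and 114.4 CPM after heat (1141, 1162 and 1367 reads), against 11.5, 11.4 and 12.6 CPM in the controls (169, 189 and 141 reads). Every heated library thus lay far above every control library. The log2 fold change was 4.17 ± 0.20 (SE) in atcyp18-2, or 18.1-fold (edgeR adjusted p = 8.7e-09), and 3.63 ± 0.20 in WT, or 12.4-fold (edgeR adjusted p = 3.12e-08). Larger rises were found for 0.884% of the 16636 genes tested in atcyp18-2 and for 1.13% in WT.

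SR34b, the gene with the lowest level in control leaves, came second. It had 24.5, 22.2 and 25.8 CPM in heated atcyp18-2, against 5.57, 5.70 and 3.30 CPM in control atcyp18-2. In WT it had 19.1, 23.3 and 19.6 CPM after heat, against 4.94, 4.58 and 5.07 CPM in the controls. Again no heated library overlapped a control. SR34b rose by 2.30 ± 0.20 on the log2 scale in atcyp18-2 (4.93-fold, edgeR adjusted p = 2.19e-06) and by 2.08 ± 0.20 in WT (4.24-fold, edgeR adjusted p = 6.64e-06). With 37 to 83 reads per control library and 142 to 233 per heated library, it rested on fewer reads than SR30.

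SR34, the best expressed of the 4 in control leaves, rose less. It had 53.3, 44.3 and 40.8 CPM in heated atcyp18-2, against 24.8, 24.8 and 26.2 CPM in control atcyp18-2. In WT it had 44.6, 43.7 and 38.6 CPM after heat, against 23.3, 23.6 and 26.8 CPM in the controls. The groups did not overlap in either genotype. The log2 fold change was 0.87 ± 0.14 in atcyp18-2 (edgeR adjusted p = 0.000453) and 0.78 ± 0.14 in WT (edgeR adjusted p = 0.00136).

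SR34a moved least, and its call was the least firm. It had 21.2, 14.4 and 13.5 CPM in heated atcyp18-2, against 10.6, 12.02 and 9.30 CPM in control atcyp18-2. In WT it had 18.04, 17.3 and 12.4 CPM after heat, against 10.2, 12.7 and 13.0 CPM in the controls, and here the groups overlapped. The change passed the test in atcyp18-2, with 0.62 ± 0.21 (edgeR adjusted p = 0.0424), and missed it in WT, with 0.41 ± 0.21 (adjusted p = 0.189; 95% interval -0.05 to 0.86). In atcyp18-2 the call was lost without heat replicate 1 (0.37, edgeR adjusted p = 0.222) and in 8 more of the 12 fits that left out 1 library, whose edgeR adjusted p ran from 0.0299 to 0.222. The difference between the genotypes in this heat response was 0.21 ± 0.30 (edgeR adjusted p = 1), so the 2 outcomes were not shown to differ.

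**Figure D1:**
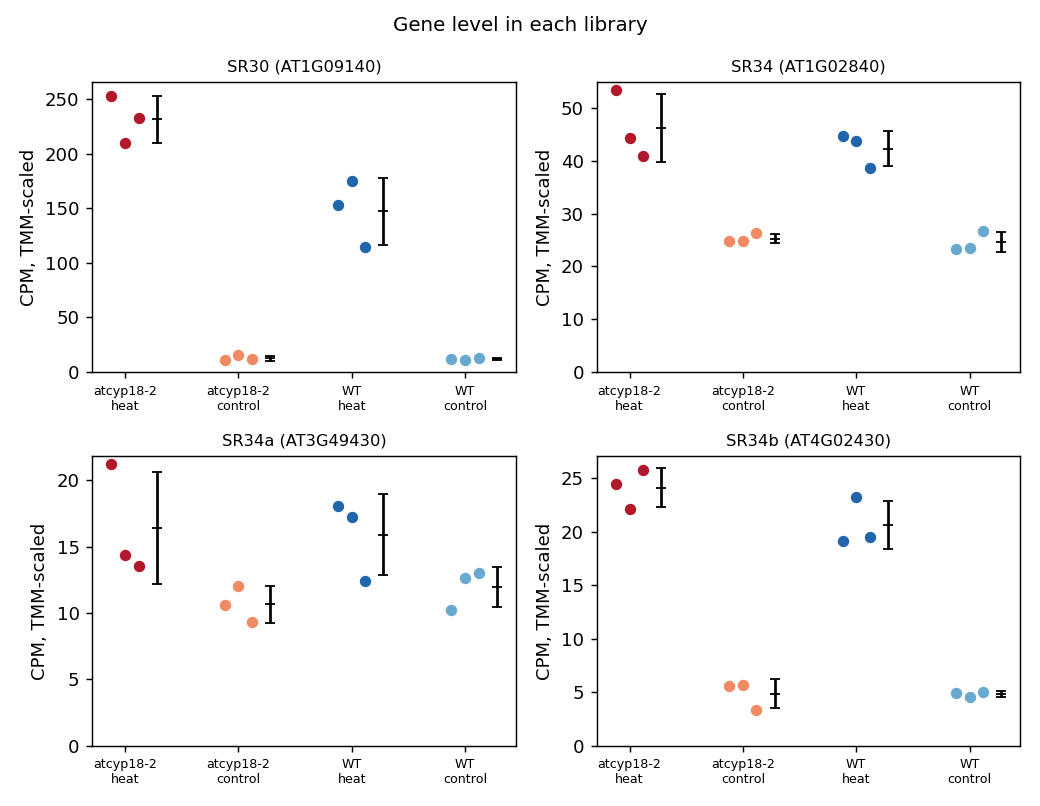
Level of each gene in each library, in CPM after TMM scaling on a linear axis from 0. Points are libraries in the order of replicates 1 to 3, and the bar beside them is the mean with the SD of 3 libraries. SR30 reached 209.6 to 252.8 CPM in heated atcyp18-2 and 114.4 to 174.6 CPM in heated WT, against at most 15.4 CPM in the controls, whereas SR34a overlapped between heat and control in WT.

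These counts have to be read against how many genes moved with heat. In atcyp18-2, 32.2% of all genes tested passed the threshold, 16.9% of all being higher and 15.3% lower, and 4 of the 4 genes were called higher. In WT, 23.5% passed, 13.2% of all being higher and 10.3% lower, and 3 of the 4 were called higher. The median log2 fold change of the 4 was 1.59 in atcyp18-2 and 1.43 in WT, beside -0.01 and -0.02 for all genes tested. All these values rest on TMM scaling. Scaling by library totals alone moved the median of all genes to -0.76 in atcyp18-2 and -0.77 in WT, and 2 of the 4 were then called in each genotype. Of all 16636 genes tested, 8419 were called in atcyp18-2, 1010 of them higher, and 8299 in WT, 799 of them higher. SR30 and SR34b stayed called higher under this scaling. SR34 was then at 0.11 and 0.03, and SR34a at -0.15 and -0.37, in atcyp18-2 and in WT. Since RNA was measured per library, fewer cells of a type and less RNA per cell cannot be told apart in any of these changes.

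The second question of the design is whether the mutant differed from WT. Without heat, all 4 genes were at nearly equal levels in the 2 genotypes, with log2 differences of 0.11 ± 0.19 for SR30, 0.04 ± 0.14 for SR34, -0.16 ± 0.21 for SR34a and 0.01 ± 0.20 for SR34b. edgeR called 0 of the 4, DESeq2 0, and 0 were under an unadjusted p of 0.05. Over all genes tested, edgeR called 0.024% and DESeq2 0.114%, and 2.38% were under an unadjusted p of 0.05 in edgeR. The 95% intervals ran from -0.29 to 0.52 for SR30, from -0.26 to 0.34 for SR34, from -0.62 to 0.29 for SR34a and from -0.43 to 0.45 for SR34b. A difference of up to these sizes is therefore not excluded by the spread of the libraries.

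After heat, SR30 was higher in every atcyp18-2 library (209.6 to 252.8 CPM) than in any WT library (114.4 to 174.6 CPM). The log2 difference was 0.65 ± 0.18, or 1.57-fold, with a 95% interval of 0.27 to 1.04. Its unadjusted p was 0.00286 and its edgeR adjusted p = 0.175, which missed the threshold over all genes, where 0.222% passed. DESeq2 called it, with 0.66 ± 0.19 (DESeq2 adjusted p = 0.036). Within the positive side of the component the values were 252.8 and 232.6 CPM in atcyp18-2 and 152.6 and 174.6 CPM in WT, and on the negative side 209.6 CPM in atcyp18-2 and 114.4 CPM in WT. The lowest library of each heated group was thus its only one on the negative side. With the side as a covariate, an alternative chosen after seeing the data and read from the same libraries, the difference was 0.67 ± 0.10 (edgeR adjusted p = 0.000247). That fit called 1232 of the 16636 genes in this comparison, against 37 without the covariate. Of 21 alternatives tried, only these 2, DESeq2 and the covariate, called SR30 here. When 1 library was left out in turn, the difference was 0.50 to 0.78 and was never called (edgeR adjusted p = 0.172 to 0.435).

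The other 3 genes differed by less between the heated groups. SR34b was at 0.23 ± 0.19, SR34 at 0.13 ± 0.14 and SR34a at 0.05 ± 0.21 on the log2 scale, with edgeR adjusted p = 0.775, 0.856 and 0.98. Of the 4 genes, edgeR called 0 and DESeq2 called 1, SR30, which was also the only one under an unadjusted p of 0.05. Over all genes, DESeq2 called 1.27% in this comparison, and 10.5% were under an unadjusted p of 0.05 in edgeR.

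The heat response of SR30 was larger by 0.54 ± 0.26 on the log2 scale in atcyp18-2 than in WT. This missed the threshold (unadjusted p = 0.0559, edgeR adjusted p = 0.924; 95% interval -0.02 to 1.10), so a difference in the heat response of SR30 was not shown. For SR34, SR34a and SR34b the differences were 0.08 ± 0.20, 0.21 ± 0.30 and 0.22 ± 0.28. No gene at all passed this test in edgeR (0%, with 912 genes or 5.48% under an unadjusted p of 0.05), while DESeq2 called 16 genes or 0.0962%, none of them among the 4. With the component side as a covariate, chosen after seeing the data, the value for SR30 was 0.67 ± 0.16 (edgeR adjusted p = 0.0426). That fit called 179 of the 16636 genes in this comparison, against 0 without the covariate. Since the side was read from the spread of these same libraries, this p-value cannot decide whether the responses differ. Of 20 alternatives tried for this comparison, only the fit with the covariate called SR30.

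**Figure D2:**
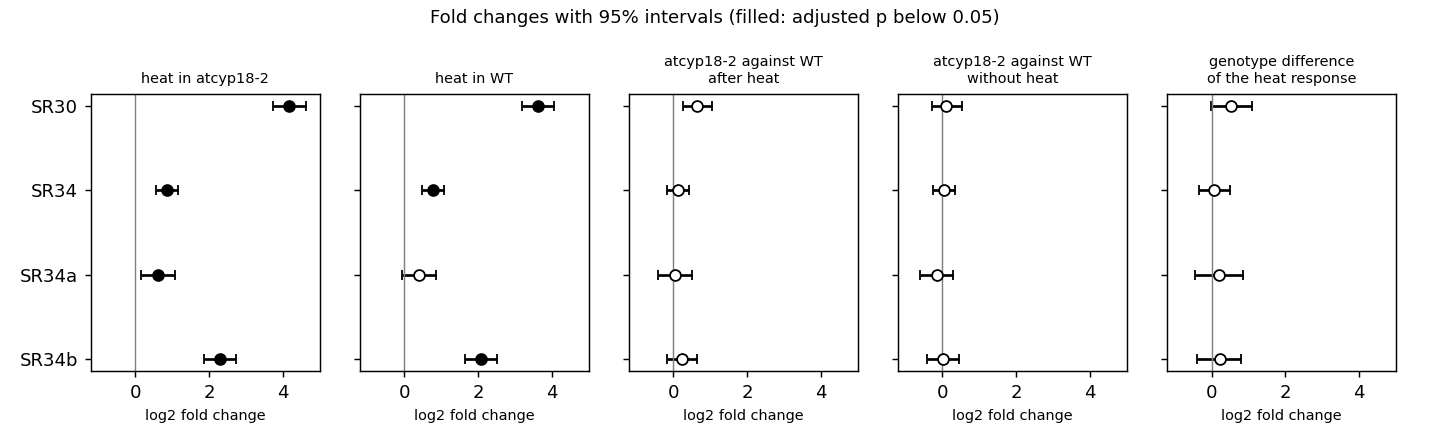
Log2 fold change of each gene in the 5 comparisons, with the 95% interval of the edgeR fit. Filled points passed an adjusted p of 0.05 over all 16636 genes tested. All 4 points are filled for heat in atcyp18-2 and 3 for heat in WT, and none in the 3 comparisons of the genotypes, of which SR30 after heat lay highest at 0.65.

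The authors' deposited table of changed genes lists SR30 and SR34b in both genotypes. For heat in atcyp18-2 it gives log2 fold changes of 4.261 for SR30 and 2.428 for SR34b among 1649 genes. For heat in WT the authors' deposited table gives 3.731 for SR30 and 2.169 for SR34b among 1020 genes. It names SR30.1 and SR34b.4 as the rows used. SR34 and SR34a are not listed for heat in either genotype. These lists hold fewer genes than the 5358 and 3911 called here in atcyp18-2 and in WT, so absence from them is not read as no change. In the authors' deposited tables of atcyp18-2 against WT, which hold 4 genes after heat and 7 without heat, no SR30 or SR34 gene appears.

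Levels of different genes were compared per kilobase, on an annotated row with the longest coding part. SR30, SR34 and SR34b have 1 such row each, whereas 6 of the 7 annotated rows of SR34a tie with 300 residues, and the lowest-numbered of them was taken. The rows used are called coding rows here, and are SR30.1 (1314 bases, 268 residues), SR34.1 (1517 bases, 303 residues), SR34a.1 (1458 bases, 300 residues) and SR34b.4 (1542 bases, 292 residues). They are not alike in structure. SR34b.4 has its stop 394 bases before the last exon junction, and every annotated transcript of SR34b has it 394 to 852 bases before. The stops of SR30.1, SR34.1 and SR34a.1 do not lie before that junction. Whether SR34b.4 is a target of nonsense-mediated decay was not tested. After heat SR30 led in atcyp18-2, with 164.5 ± 15 CPM per kilobase. SR34 followed with 29.2 ± 4.33, then SR34b with 15.0 ± 1.19 and SR34a with 10.3 ± 2.76. Heated WT had the same order, with 105.4 ± 20.9 for SR30, 26.4 ± 1.79 for SR34, 13.0 ± 1.42 for SR34b and 9.34 ± 1.64 CPM per kilobase for SR34a. In both heated groups the ranges of neighbours in this order did not overlap on these rows, the closest pair being SR34b (13.7 to 16) and SR34a (8.51 to 13.4) in atcyp18-2. With the tied row SR34a.3 (1432 bases) SR34a had 8.77 to 14.1 CPM per kilobase there and did overlap with SR34b.

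Without heat the order was another one. SR34 led in control atcyp18-2 with 15.7 ± 0.579 CPM per kilobase, before SR30 with 8.50 ± 1.28, SR34a with 6.37 ± 0.577 and SR34b with 2.75 ± 0.819. In control WT, SR34 had 15.0 ± 1.36, SR30 had 7.85 ± 0.373, SR34a had 6.64 ± 0.612 and SR34b had 2.84 ± 0.227 CPM per kilobase. SR30 and SR34a did not overlap here, but on the longer gene rows they did, at 4.83 to 6.83 and 3.89 to 5.03 CPM per kilobase in atcyp18-2. With SR34a.3 in place of SR34a.1 they overlapped in both genotypes, at 7.44 to 9.92 CPM per kilobase for SR30 and 6.19 to 7.92 for SR34a in control atcyp18-2, and at 7.52 to 8.25 and 6.47 to 8.38 in control WT. Their order in control leaves therefore depends on the row.

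The summed level of the 4 genes was 218.9 ± 21.8 CPM per kilobase in heated atcyp18-2 and 33.3 ± 1.75 in control atcyp18-2, and 154.1 ± 25.1 in heated WT and 32.3 ± 2.22 in control WT. The share of SR30 in that sum does not depend on library scaling. It was 74.2, 74.9 and 76.4% in heated atcyp18-2 and 22.9, 28.1 and 25.3% in control atcyp18-2. In WT it was 68.4, 70.5 and 65.5% after heat and 25.0, 24.2 and 23.6% in the controls. SR30 was thus the largest part of the subfamily in every heated library and about level between genotypes in the controls, while the 3 heated atcyp18-2 libraries all had a higher share than the 3 heated WT libraries. SR34, by contrast, made up 13.3 ± 1.12% in heated atcyp18-2 and 47.2 ± 3.89% in control atcyp18-2, and 17.3 ± 1.87% in heated WT and 46.4 ± 1.09% in control WT. The share of SR34b differed little, with 6.88 ± 0.622% and 8.22 ± 2.32% in heated and control atcyp18-2, and 8.49 ± 0.958% and 8.78 ± 0.61% in heated and control WT. On the gene rows the share of SR30 was 70.0 ± 1.43% in heated atcyp18-2 and 61.7 ± 3.01% in heated WT. With any of the 6 tied rows for SR34a, the mean share of SR30 was 75.05 to 76.36% in heated atcyp18-2 and 67.67 to 69.37% in heated WT. These shares are given as a description, without a test.

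**Figure D3:**
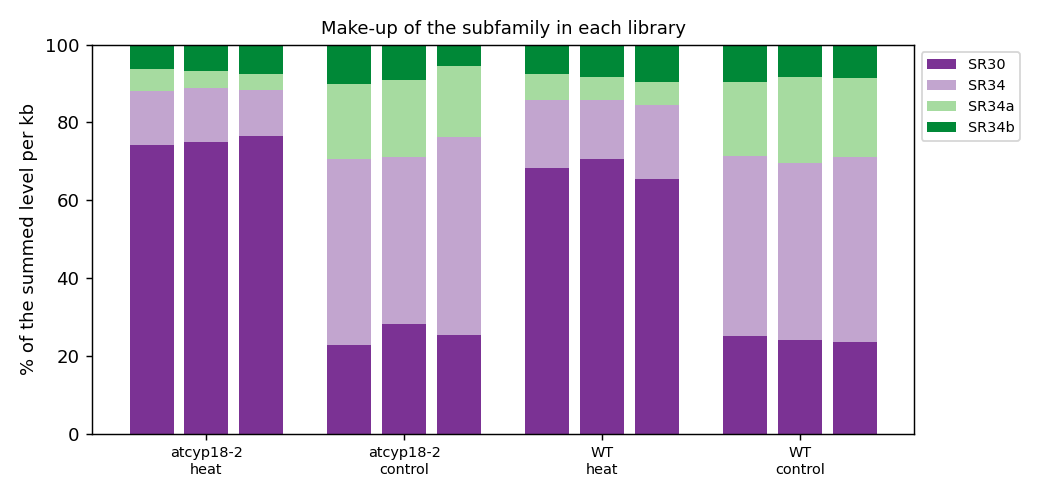
Share of each gene in the summed level of the 4 genes per kilobase of the coding rows, in percent, with 1 bar per library. SR30 took 74.2 to 76.4% in heated atcyp18-2 and 65.5 to 70.5% in heated WT, against 22.9 to 28.1% in the controls, in which SR34 was the largest part.

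The transcript rows were examined next, since SR30 and SR34 pre-mRNAs are known to be spliced in several ways. Of the 31 rows, all were tested. In the edgeR fit of 41746 rows, 31 of the 31 were called higher with heat in atcyp18-2, where 33.9% of all rows tested passed and 19% were higher. In WT, where 24.3% passed and 14.7% were higher, 22 were called, namely the 5 rows of SR30, the 8 of SR34 and the 9 of SR34b. The 9 rows of SR34a missed the threshold in WT, with 7 under an unadjusted p of 0.05, as were 36.2% of all rows tested. The rows of a gene share most of their reads and are not separate evidence. Their log2 fold changes ran from 4.17 to 4.27 for SR30, from 0.87 to 0.91 for SR34, from 0.59 to 0.69 for SR34a and from 2.30 to 2.49 for SR34b in atcyp18-2, and from 3.63 to 3.74, 0.77 to 0.82, 0.41 to 0.50 and 2.08 to 2.28 in WT for the same genes in the same order. None of the 31 was called by edgeR in the 3 comparisons of the genotypes, where 0.417% of all rows passed after heat, 0.0216% without heat and 0% for the difference of the heat response. There were 5 rows under an unadjusted p of 0.05 after heat and 4 for the difference of the heat response, all of them rows of SR30, and 0 without heat, where 11.5%, 5.71% and 2.45% of all rows were.

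SR30 has 3 annotated transcripts, which are nested in exonic sequence. SR30.1 is the shortest, and its stop codon lies in the last exon. SR30.2 holds 338 more bases, codes for 256 residues and has its stop 359 bases before the last exon junction. SR30.3 keeps the whole of that intron, with 942 bases more than SR30.1, and codes for 248 residues, its stop lying 987 bases before the last junction. A read counted for SR30.3 and not for SR30.1 thus touches the additional sequence, although how a read that lies partly in it was counted is not given in the sources used here.

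Such reads were a minority in every library and were more numerous after heat. There were 93, 95 and 125 in heated atcyp18-2 and 14, 34 and 15 in control atcyp18-2, and 78, 69 and 58 in heated WT and 18, 25 and 19 in control WT. In scaled units they came to 15.4 ± 4.22 CPM in heated atcyp18-2 and 1.56 ± 0.664 CPM in control atcyp18-2, and to 8.54 ± 3.20 CPM in heated WT and 1.47 ± 0.238 CPM in control WT. The ratio of means was 9.89 in atcyp18-2 and 5.81 in WT, whereas that of the coding row was 19.4 and 13.4 in the same genotypes.

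In these libraries SR30.1 therefore held a larger part of the gene row after heat. It held 93.9, 94.7 and 91.6% in heated atcyp18-2 and 90.3, 85.0 and 89.1% in control atcyp18-2. In WT it held 93.2, 94.1 and 95.8% after heat and 89.3, 86.8 and 86.5% in the controls. The groups did not overlap in either genotype, and the mean difference over both genotypes was 6.02 percentage points. An exact permutation test of heat within each genotype gave p = 0.005 (two-sided, 400 arrangements), which is the smallest it can give. This test was chosen after the values had been seen. In a limma fit of row ratios over all genes SR30.1 missed the threshold (limma adjusted p = 0.405 in atcyp18-2 and 0.206 in WT). Per base, the additional sequence of SR30.3 had 9.75% of the read density of SR30.1 in heated atcyp18-2 and 19.7% in control atcyp18-2, and 8.25% in heated WT and 19.8% in control WT.

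For SR34b the outcome depended on the row taken as the whole gene. Its row SR34b.3 holds the 1542 bases of SR34b.4 and 398 more, which include a whole intron of SR34b.4. SR34b.4 held 97.3, 95.7 and 96.3% of the gene row in heated atcyp18-2 and 91.8, 86.7 and 86.5% in control atcyp18-2. In WT it held 98.6, 97.4 and 96.1% after heat and 93.1, 88.0 and 92.9% in the controls. No heated library overlapped a control, and the mean difference was 7.09 percentage points (exact permutation test within genotype, two-sided p = 0.005, the smallest possible). The difference rests on few reads, since only 2 to 9 reads per heated library and 4 to 11 per control library lay outside SR34b.4. An assembled row of SR34b held more reads than SR34b.3 in all 6 heated libraries (152, 196 and 172 in atcyp18-2, 163, 165 and 242 in WT), so SR34b.3 does not hold every read of the gene. Set against that assembled row, an alternative chosen after seeing the data, SR34b.4 held 94.7, 91.3 and 91.3% in heated atcyp18-2 and 91.8, 86.7 and 86.5% in control atcyp18-2. In WT it then held 85.9, 90.9 and 92.6% after heat and 93.1, 88.0 and 91.2% in the controls. The groups then overlapped in both genotypes, the difference was 4.11 points in atcyp18-2 and -0.974 in WT, and the mean of 1.57 points missed the threshold (exact permutation test, p = 0.375). A heat difference in the row share of SR34b was therefore not shown. For SR30, SR34 and SR34a the annotated gene row was also the largest row.

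For SR34 the measure is a ratio of 2 rows and not a share, since SR34.1 has 173 bases that are not in the gene row SR34.4. Reads of SR34.1 came to 96.1 ± 1.02% of those of SR34.4 in heated atcyp18-2 and 94.4 ± 0.891% in control atcyp18-2. In WT they came to 94.9 ± 0.94% after heat and 93.1 ± 1.8% in the controls. The groups overlapped, with a mean difference of 1.77 points (exact permutation test, p = 0.03).

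For SR34a the outcome depended on which of the tied rows was set against the gene row SR34a.4. SR34a.1 held 93.0, 90.1 and 92.9% in heated atcyp18-2 and 87.1, 85.2 and 92.5% in control atcyp18-2. In WT it held 82.8, 88.6 and 88.4% after heat and 85.3, 79.9 and 80.0% in the controls. The mean heat difference was 4.3 points, with overlapping groups in both genotypes (exact permutation test, p = 0.03). Between atcyp18-2 and WT the mean difference was 5.95 points (exact permutation test within temperature, p = 0.01), without overlap after heat and with overlap in the controls.

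The other tied rows, tried after seeing the data, did not bear this out. With SR34a.3 the heat difference was -1.94 points in atcyp18-2 and 4.12 in WT, with overlap in both and a mean of 1.09 (exact permutation test, p = 0.535). SR34a.3 differed between atcyp18-2 and WT by -1.35 points after heat, with overlap, and by 4.71 points in the controls, with a mean of 1.68 (exact permutation test, p = 0.38). With SR34a.6 the mean heat difference was 1.27 points (exact permutation test, p = 0.335) and the mean genotype difference 2.51 points (p = 0.06). With SR34a.7 they were 1.42 points (exact permutation test, p = 0.28) and 2.19 points (p = 0.11), and with SR34a.5, which holds nearly every read of the gene row, 0.0379 and -0.2 points (p = 1 and 0.5). Neither a heat nor a genotype difference in the row shares of SR34a was therefore shown beyond the choice of row. In the controls, atcyp18-2 lay above WT without overlap for SR34a.3, SR34a.6 and SR34a.7, and with overlap for SR34a.1 and SR34a.5. These rows share most of their reads and are not separate evidence. Within 1 temperature, an exact test of 3 against 3 libraries cannot give a p below 0.1, the value that a separation without overlap gives. The share of all rows that separate in this way is not given here, so no difference is read from it.

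For SR30, SR34 and SR34b the genotype differences of the coding row were -0.185, 1.28 and -1.95 points, with p = 0.835, 0.08 and 0.12 in the exact permutation test within temperature. When 1 library was left out, p for the heat difference was at most 0.01 for SR30 and for SR34b against SR34b.3, at most 0.075 for SR34, and at most 0.08 for SR34a.1.

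These row shares and the exact tests on them were chosen after the values had been seen, and the p-values are not adjusted. Pooled over both genotypes or both temperatures there were 17, namely 8 on coding rows, 1 on the assembled row of SR34b and 8 on the other tied rows of SR34a. Tests within 1 genotype or 1 temperature, and repeats such as those with 1 library left out, are not in this count. In the limma fit of log2 row ratios over all 19602 rows tested, 0 of the 27 rows of the 4 genes set against a gene row passed in any of the 5 comparisons. Under an unadjusted p of 0.05 were 10 rows for heat in atcyp18-2, 15 for heat in WT, 1 for the mutant after heat, 7 without heat (all of SR34a) and 1 for the difference of the heat response. Over all rows tested, the shares under that unadjusted p were 7.02%, 7.21%, 4.6%, 3.95% and 3.4% in the same order of comparisons, and since rows of a gene share reads the members' rows are not separate counts. After adjustment, 0.128% of all rows tested passed for heat in atcyp18-2, 0.214% for heat in WT, 0.0255% after heat, 0.0204% without heat and 0% for the difference. For SR30.1 the limma adjusted p was 0.405 in atcyp18-2 and 0.206 in WT, and for SR34b.4 it was 0.226 and 0.407.

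**Figure D4:**
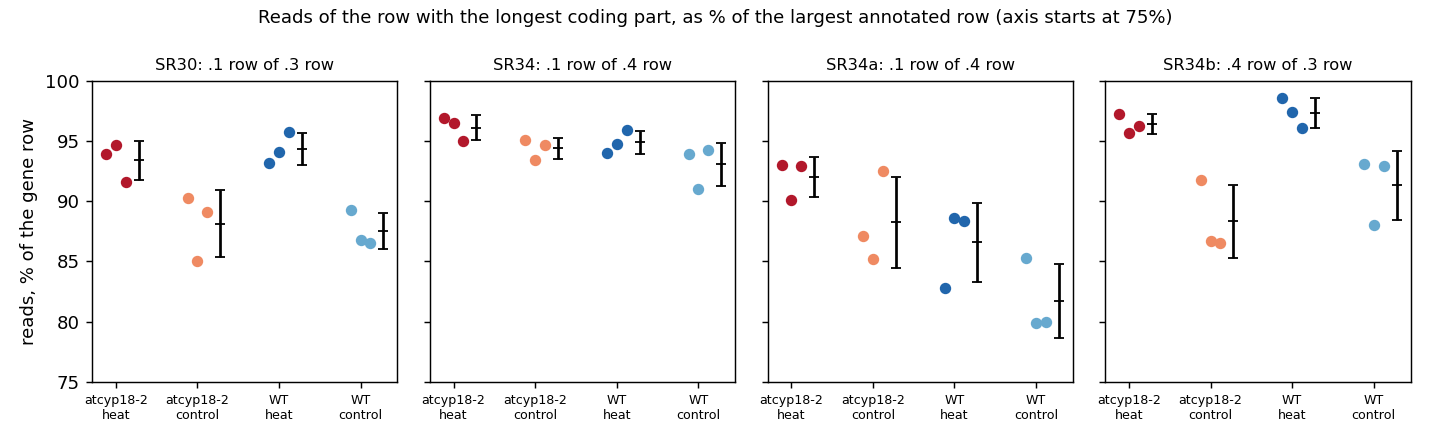
Reads of the coding row as a percentage of the reads of the gene row in each library, on an axis that starts at 75%. Points are libraries, and the bar beside them is the mean with the SD of 3. Heated libraries lay above control libraries without overlap for SR30 and SR34b in both genotypes, which for SR34b did not hold against its largest assembled row. SR34a is drawn for SR34a.1, 1 of its 6 tied rows, and the gap between atcyp18-2 and WT after heat that it shows was absent with SR34a.3.

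The other SR genes of the leaf were read beside these 4. Of 16 listed, 15 were tested, and SCL28 (AT5G18810) had too few reads. In atcyp18-2, 9 rose with heat and 0 fell, with a median log2 fold change of 0.87. In WT, 6 rose and 0 fell, with a median of 0.52, which is to be read against the 16.9% and 13.2% of all genes called higher. SR45a (AT1G07350), an SR-like protein known to respond to heat and strong light, rose by 5.15 ± 0.20 in atcyp18-2, with 495.3 ± 33.6 CPM in heated and 13.9 ± 1.16 CPM in control leaves. It rose by 4.93 ± 0.20 in WT, with 361.4 ± 51.3 CPM in heated and 11.9 ± 2.16 CPM in control leaves. SCL33 (AT1G55310), of the plant-specific SCL subfamily, rose by 3.35 ± 0.23 in atcyp18-2 and 3.20 ± 0.23 in WT. RS31a (AT2G46610), of the RS subfamily, rose by 1.58 ± 0.35 in atcyp18-2 and 1.17 ± 0.35 in WT. By size of change SR30 thus stood between SR45a and SCL33, and SR34b between SCL33 and RS31a, in both genotypes. With library totals in place of TMM, 3 of the 15 were called higher and 4 lower in atcyp18-2, and 2 higher and 1 lower in WT. Of all 16636 genes tested, 1010 were then called higher and 7409 lower in atcyp18-2, and 799 higher and 7500 lower in WT. The direction of the smaller changes thus depends on the scaling, under which calls lower were frequent over all genes. Between the genotypes edgeR called 0 of the 15 in each of the 3 comparisons, with 2 under an unadjusted p of 0.05 after heat, 0 without heat and 0 for the difference of the heat response. Over all genes tested, edgeR called 0.222%, 0.024% and 0% in the same order, and 10.5%, 2.38% and 5.48% were under that unadjusted p.

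**Figure D5:**
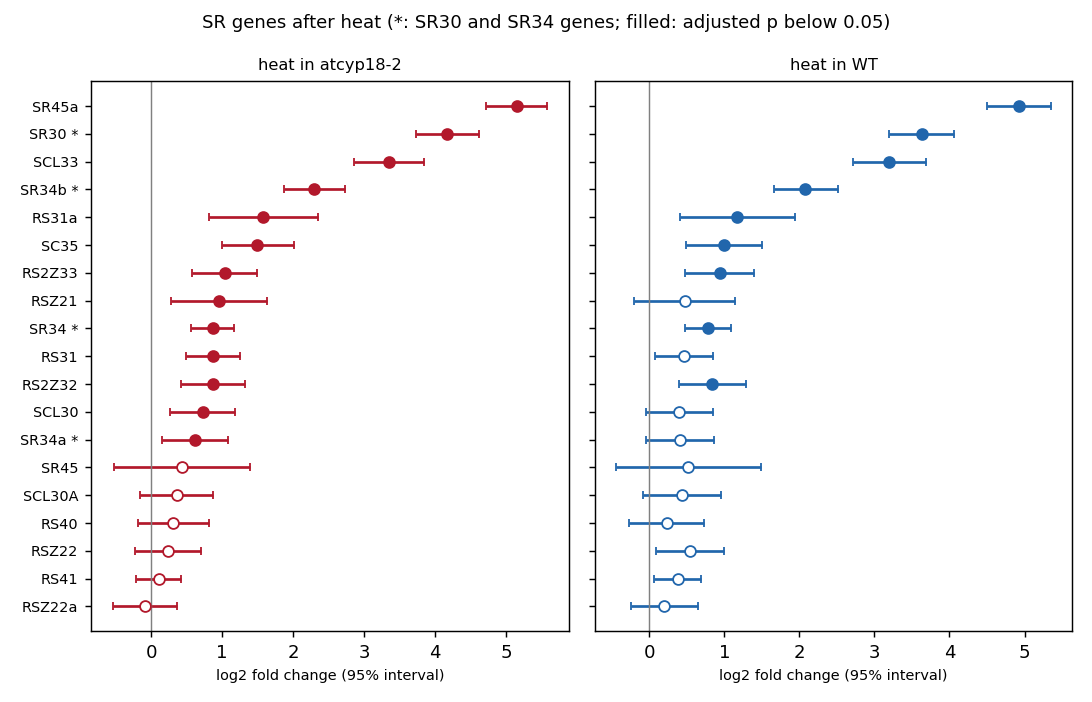
Log2 fold change with heat of the 19 tested SR genes in atcyp18-2 and in WT, ordered by the value in atcyp18-2, with 95% intervals of the edgeR fit on TMM-scaled counts. Filled points passed an adjusted p of 0.05, and stars mark the SR30 and SR34 genes. SR45a, SR30, SCL33 and SR34b lead in both genotypes. With library totals in place of TMM, SR34a falls below 0 in both genotypes. Then 4 other SR genes are called lower in atcyp18-2 and 1 in WT, beside 7409 and 7500 of all 16636 genes tested.

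Among the partners of SR proteins, the U1 and U2AF list had 4 of 7 genes higher and 0 lower with heat in atcyp18-2, and 2 of 7 higher and 0 lower in WT. Of all genes tested, 16.9% were called higher and 15.3% lower in atcyp18-2, and 13.2% higher and 10.3% lower in WT. AT4G03120 had 1.43 ± 0.27 in atcyp18-2, which passed, and 0.76 ± 0.27 in WT, which did not (edgeR adjusted p = 0.0565). ATU2AF35A (AT1G27650) rose by 0.81 ± 0.18 and 0.56 ± 0.18, and ATU2AF65A (AT4G36690) by 0.75 ± 0.14 and 0.57 ± 0.14, these being the small and the large subunit of the factor that binds the 3′ splice site. Of the 8 listed kinases of SR proteins, 1 rose and 2 fell in atcyp18-2, and 1 rose and 0 fell in WT. The one that rose in both was SRPK4 (AT3G53030), by 1.43 ± 0.25 in atcyp18-2 and 1.07 ± 0.25 in WT. AT3G44850 fell by 1.36 and AT2G17530 fell by 0.89 in atcyp18-2 (edgeR adjusted p = 0.00578 and 0.00643). The import receptor MOS14 (AT5G62600), which carries SR proteins into the nucleus, missed the threshold with -0.50 ± 0.21 in atcyp18-2 and -0.15 ± 0.20 in WT. Of the 3 cyclophilins with an RS domain or an RNA-binding domain, 1 rose in atcyp18-2, AT3G63400 by 1.29 ± 0.25, and 0 in WT, where 1 was under an unadjusted p of 0.05. Of the 4 listed genes of nonsense-mediated decay, edgeR and DESeq2 called 0 in either genotype, and 0 were under an unadjusted p of 0.05 in edgeR. Over all genes tested, 42.5% were under that unadjusted p with heat in atcyp18-2 and 35.7% in WT, and DESeq2 called 31.8% and 23.7%. For the genotype difference of the heat response, edgeR called 0 genes of these lists, and 0 were under an unadjusted p of 0.05. Over all genes tested, these shares were 0% and 5.48%. A call in atcyp18-2 beside a miss in WT was therefore not shown to be a difference between the genotypes. With library totals in place of TMM, only AT4G03120 in atcyp18-2 was still called higher among these 4 lists and the receptor. Called lower were then 3 kinases in atcyp18-2 and 4 in WT, 3 genes of nonsense-mediated decay in atcyp18-2 and 2 in WT, 1 cyclophilin in atcyp18-2, 1 gene of the U1 and U2AF list in WT, and MOS14 in both genotypes. The lists had medians between -0.13 and -0.85 in atcyp18-2 and between -0.41 and -0.79 in WT, beside -0.76 and -0.77 for all genes tested. Of these 16636 genes, 1010 were then called higher and 7409 lower in atcyp18-2, and 799 higher and 7500 lower in WT. Calls lower were thus frequent over all genes under this scaling.

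The genes whose pattern over the 12 libraries was most like that of each member were found by the root mean square difference of centred log2 CPM, among 5469 genes of at least 10 CPM. For SR30 these were RD28 (AT2G37180), the aquaporin PIP2;3 of the plasma membrane, at 0.146, AT3G03270 at 0.154 and AT2G41160 at 0.221. RD28 rose by 4.07 in atcyp18-2 and 3.78 in WT. For SR34b they were CDS2, a CDP-diacylglycerol synthase, at 0.178, SPDS3 at 0.198 and AT5G12040 at 0.207. For SR34 they were the ubiquitin ligase UPL6 at 0.072, SAG24 (a ribosomal protein L10) at 0.079 and SMAP1 at 0.083, and for SR34a the proline biosynthesis enzyme P5CR at 0.148, AT2G44870 at 0.152 and AR401 at 0.157.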

How the data were processed

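RNA-seq counts of 12 rosette leaf libraries were used as deposited. The authors' series table holds whole-number counts per transcript, marked as raw per the file headers. The submitters' processing notes list HTSeq and DESeq with no version or role. For aligner and genome build nothing is given in the sources used here. The lowest value in any library was 1, so 1 added read per row was subtracted from printed read numbers, and CPM of gene rows include it. Of 51792 rows, 1 exact repeat was dropped. The 12 columns of the authors' normalized values were not used. Log2 fold changes and adjusted p-values from the authors' deposited tables are quoted only as theirs.

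Gene counts were tested with edgeR 4.0.16 (R 4.3.3), with TMM, filterByExpr by group and 1 fit of all 12 libraries with 8 residual degrees of freedom. A call means a p below 0.05 after Benjamini-Hochberg adjustment over 16636 genes. Each SE was obtained by dividing the log2 fold change by the square root of F. Transcript rows were fitted with the same library sizes and factors. Row ratios were fitted with limma 3.58.1, with 0.5 added to both parts. DESeq2 1.42.0 was an alternative. The functions were tested on simulated data. Exon structure and names came from RefSeq TAIR10.1, matched by identifier, and 22965 gene identifiers were found there. No protocol states that counting used strand. Any 2 libraries of a group differed by a chi-square of at least 2.69 per degree of freedom, so each library was counted as 1 sample.

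Replicate numbers were not taken to pair libraries, since of 18 same-numbered pairs of groups 7 had a correlation of deviations over 0.1, with a range of -0.65 to 0.51. The genes and lists were chosen with earlier results of these data known. Named genes were the 4 members and their rows, the 3 nearest in pattern to each, and up to 3 called genes of largest change per list and comparison. MOS14, the 1 gene of its list, was named without a call and SCL28 as not tested, and RD28 was read as a fold change after its likeness was known. No coordinates or sequences are given, since the build of the counts is not named.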

Additional observations from a re-analysis of the deposited data

How the results depend on the processing

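The heat rises of SR30 and SR34b were called in both genotypes under all 21 alternatives tried, at 3.42 to 4.33 and 2.85 to 3.79 for SR30 and at 1.53 to 2.43 and 1.33 to 2.17 for SR34b, in atcyp18-2 and in WT. SR34 lost its call with library totals alone, at 0.11 in atcyp18-2 and 0.03 in WT.

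Without TMM, 2 of the 4 genes and 14 of the 31 rows were called for heat in atcyp18-2, and 14 rows in WT. The share of all transcript rows called without TMM is not given here, so nothing is read from these row counts. Genes called were then 8419 for heat in atcyp18-2 (1010 higher, 7409 lower, against 2812 and 2546 with TMM) and 8299 in WT (799 higher, 7500 lower, against 2200 and 1711), 6 for the mutant after heat and 0 without heat. SR34a was at -0.15 and -0.37 with heat in the 2 genotypes and at -0.04 between genotypes after heat, and without heat SR34 was at -0.05 and SR34b at -0.08. Without the filter on low counts, 24 genes were called after heat against 37, SR34b was at -0.02 without heat, and SR34a missed the threshold with heat in atcyp18-2 (0.47).

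With the replicate number as a block, 3 genes were called after heat and 1 without heat against 37 and 4, SR34a was at 0.61 with heat in atcyp18-2 (edgeR adjusted p = 0.0595) and SR34b at -0.0036 without heat. With the first transcript model of each gene SR34b was at -0.03 without heat. With nuclear genes only, 7 genes were called without heat. In fits of the compared groups only, 1 gene was called after heat and 1 without heat, and SR34a was at 0.58 (edgeR adjusted p = 0.0703). DESeq2 called 211 genes after heat, 19 without heat and 16 for the difference of the heat response, and 1 of the 4 genes after heat. With the component side as a covariate, chosen after seeing the data, genes called were 8526 and 7005 for heat in atcyp18-2 and in WT, 1232 after heat, 68 without heat and 179 for the difference, and 1 of the 4 genes was called after heat and 1 for the difference.

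Leaving out 1 library in turn gave 2 to 39 genes called after heat and 0 to 10 without heat, 4219 to 5656 for heat in atcyp18-2 and 2648 to 4114 in WT, with 3 to 4 and 3 of the 4 genes called for heat in these genotypes. Near-zero genotype differences changed sign: without heat, SR30 was at -0.04 without atcyp18-2 control replicate 2, and SR34b at -0.03, -0.09 and -0.12 without WT control replicate 2, atcyp18-2 control replicate 1 or replicate 2. After heat, SR34a was at -0.11 without WT heat replicate 3 and at -0.18 without atcyp18-2 heat replicate 1, and without that atcyp18-2 library the differences of the heat response were -0.03 for SR34 and -0.02 for SR34a. Over these fits the values ran up to 0.22 for SR30 and 0.22 for SR34b without heat, to 0.15 for SR34a after heat, and to 0.16 for SR34 and 0.32 for SR34a in the difference of the heat response. Against the largest row of any kind, the heat difference of the SR34b row share was 1.57 points in place of 7.09 (exact permutation test, p = 0.375 and 0.005). With the other tied coding rows of SR34a, the heat difference was 0.0379 to 1.42 points in place of 4.3 (exact permutation tests, p = 0.28 to 1) and the genotype difference -0.2 to 2.51 in place of 5.95 (p = 0.06 to 0.5), an alternative chosen after seeing the data. The cause of these shifts was not tested. Depth limits SR34b and SR34a most, with as few as 37 and 85 reads in a library.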
